A study of Gossypium hirsutum with 6 samples.

Results

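The lipoxygenases (LOX) of cotton (*Gossypium hirsutum*) are the subject of this account. Its members are the genes of the deposited expression table that the table matches to 1 of the 6 *Arabidopsis* lipoxygenase loci, LOX1 to LOX6. There are 35 such genes, called copies here, among 70478 genes in all. A copy carries the name of its *Arabidopsis* match and its own cotton gene ID, so LOX1 Gh_D08G2224 is a cotton gene whose listed match is LOX1. Of the 35 copies, 20 match a 9-LOX (9 match LOX1, AT1G55020, and 11 match LOX5, AT3G22400) and 15 match a 13-LOX (3 match LOX2, AT3G45140, 8 match LOX3, AT1G17420, 1 matches LOX4, AT1G72520, and 3 match LOX6, AT1G67560). No copy was chosen by its level.

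Lipoxygenases add oxygen to linoleic and linolenic acid, the common polyunsaturated fatty acids of plant membranes. A 9-LOX oxygenates carbon 9 of the chain and a 13-LOX carbon 13, and JA (jasmonic acid) is made in the plastid and the peroxisome from the 13-hydroperoxide of linolenic acid. In *Arabidopsis*, LOX2 makes much of the JA of wounded leaves, LOX3 and LOX4 serve male fertility, LOX6 acts early after wounding and in roots, and the 9-LOX enzymes LOX1 and LOX5 take part in root development and defence.

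The samples were whole seedlings of wild-type CCRI24 cotton, 4 d old when moved to MS medium with DMSO (the solvent control) or 5 μM AZD (AZD8055, an ATP-competitive inhibitor of the TOR kinase) and treated for 24 h. Their age is labelled as 5 d. RNA of each treatment was sequenced in 3 libraries, which the study calls biological repeats, and the values are FPKM (fragments per kilobase of transcript, scaled to the mapped fragments of the library), so levels can be set side by side between copies. DMSO and AZD libraries below are those that the deposited labels so name, with values in the order of replicates 1, 2 and 3. In the study's own account the direction of its listed LOX copies is the opposite of the one these labels give. The same holds for its listed AOS, ACX1 and JAZ copies, while its listed OPR3 copy has the direction of the labels. For LOX1 Gh_D08G2224 the log2 ratio of group means (AZD over DMSO) is −2.52 by the labels. The study gives the same size with the opposite sign. It also lists Gh_A11G3061, an auxin-responsive GH3 gene, as lower, while the labels give a log2 ratio of 1.09, again of the same size. Whether labels or signs were exchanged was not tested. The study also reports quantitative real-time PCR in which AZD raised the AOS copy Gh_D06G0089 and the JAZ copy Gh_D08G2564. Both lay lower in each library labelled AZD than in any labelled DMSO. The study further names carbon fixation in photosynthesis as enriched among its down-regulated genes. The deposited values alone do not settle which direction is right.

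As a check of the tissue, 14 genes matched to green tissue markers summed to 1987 to 4002 FPKM in the DMSO libraries and to 10539 to 11810 FPKM in the AZD libraries, and 2 of them were listed at 0 in every library. Within the DMSO group, replicate 1 had the highest sum (4002 FPKM, against 2101 and 1987 FPKM in replicates 2 and 3). Of 41 genes matched to root markers, summed at 22.5 to 39.6 and 21.4 to 35.8 FPKM, 8 were at 0 throughout and no copy of EXPA7, which marks root hairs, reached a mean of 0.5 FPKM. The 16 genes of seed storage tissue summed to 5.50 to 9.66 and 5.13 to 5.78 FPKM, with 2 at 0. In a whole seedling, fewer cells of a type and less RNA per cell cannot be told apart. Spearman correlations across tested genes were 0.880 to 0.904 among the DMSO libraries and 0.920 to 0.933 among the AZD libraries.

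9-LOX copies took most of the LOX expression. Summed over all copies, the 9-LOX level was 99.6, 616 and 437 FPKM in the DMSO libraries, against 84.9, 76.7 and 68.3 FPKM in the AZD libraries. The 13-LOX level was 12.3, 11.4 and 15.6 FPKM and 10.8, 13.1 and 18.5 FPKM in the same order. The 9-LOX sums thus lay higher in each DMSO library than in any library labelled AZD, while the 13-LOX sums of the groups overlapped. As a share of all LOX FPKM, the 9-LOX copies took 94.6% ± 4.91 (SD, n = 3) in the DMSO libraries and 84.3% ± 5.09 in the AZD libraries, and these shares are a description with no test. A single copy, LOX1 Gh_D08G2224, made up 55.4% to 93.1% of all LOX FPKM in the DMSO libraries and 60.1% to 72.8% in the AZD libraries. Without that copy the 9-LOX sums were 31.7 to 37.6 FPKM in the DMSO libraries and 15.3 to 16.3 FPKM in the AZD libraries, still without overlap. With the most abundant 13-LOX copy left out as well, the 9-LOX share was 83.6% ± 5.56 and 67.8% ± 3.11.

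Of the 35 copies, 7 were listed at 0 in every library, among them the one match to LOX4. Another 12 were above 0 somewhere but had a mean under 0.5 FPKM, the highest of them at 0.482 FPKM. The remaining 16 copies (9 of 9-LOX and 7 of 13-LOX) were tested, as parts of 1 fit with limma on log2(FPKM + 0.5) over all 43158 genes whose mean reached 0.5 FPKM. The fold change is that of the AZD libraries against the DMSO libraries, and the 0.5 FPKM added to each value makes the fold change of a low gene smaller than the ratio of its FPKM. Adjustment of p-values (Benjamini-Hochberg) ran over the whole tested table, and a copy was called at an adjusted p under 0.05. Each p-value sets the difference between the groups against the spread between these libraries, which limma moderates over all tested genes.

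**Figure D1:**
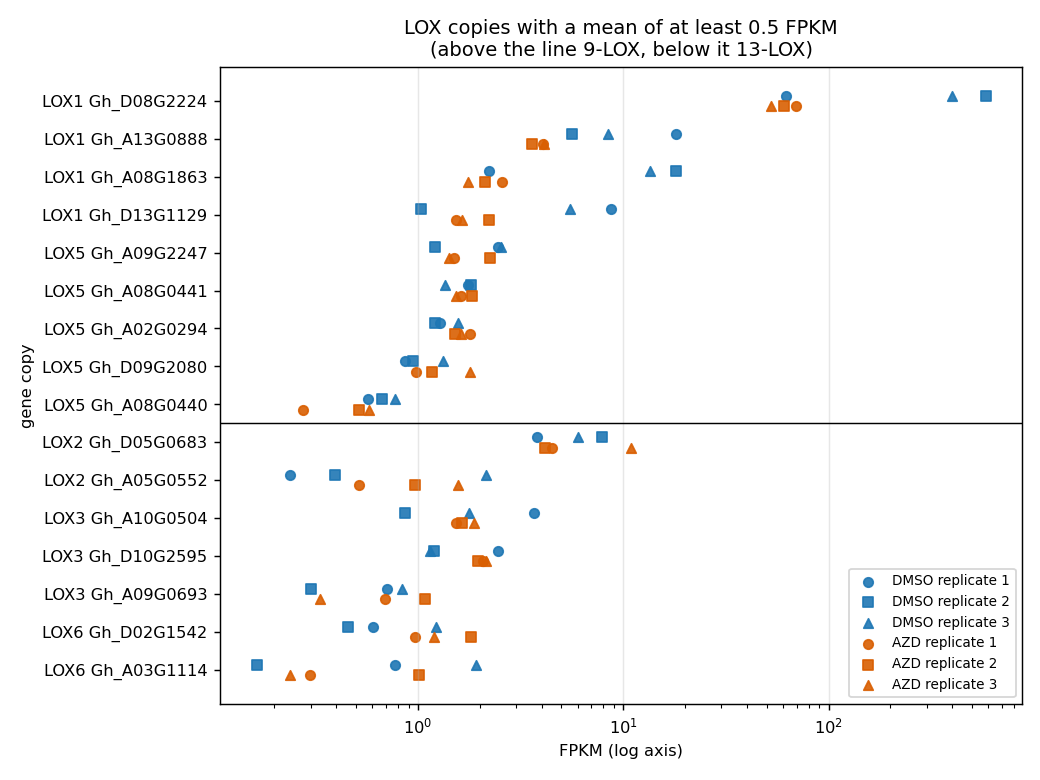
FPKM (log axis) of the 16 tested LOX copies in each of the 6 libraries, blue for DMSO and orange for AZD, with a marker shape for each replicate number. LOX1 Gh_D08G2224 is the most abundant copy, and its DMSO replicate 1 (62.0 FPKM) sits among the AZD libraries (52.2 to 69.6 FPKM).

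No LOX copy passed the test over the 6 libraries. Among all tested genes, 4.69% passed (1.89% higher and 2.80% lower in the AZD libraries). At an unadjusted p under 0.05 there were 3 LOX copies, all matched to LOX1, beside 23.4% of all tested genes. The median log2 fold change was −0.05 over the 16 copies, −0.30 over the 9 of 9-LOX and 0.09 over the 7 of 13-LOX, and it was −0.01 over all tested genes. Of the 16 copies, 8 had a negative and 8 a positive fold change. The groups did not overlap in 1 of the 16 copies, whereas they did not overlap in 30.0% of all tested genes.

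The 4 tested LOX1 copies had the largest fold changes of the family, with a median of −1.47 on the log2 scale. LOX1 Gh_D08G2224 stood at 62.0, 584 and 401 FPKM in the DMSO libraries, against 69.6, 60.4 and 52.2 FPKM in the AZD libraries. DMSO replicates 2 and 3 lay far above the rest, DMSO replicate 1 lay within the range of the AZD libraries, and the groups overlapped. Its log2 fold change was −2.01 (standard error 0.80, 95% interval −3.94 to −0.08), with a limma adjusted p of 0.199. Without DMSO replicate 1 the log2 fold change was −2.99 (95% interval −3.56 to −2.43) and the limma adjusted p was 0.00599, while without any other single library the adjusted p was 0.356 to 0.387.

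LOX1 Gh_A08G1863 followed the same order of libraries at a lower level. It stood at 2.21, 18.1 and 13.5 FPKM in the DMSO libraries, against 2.57, 2.11 and 1.75 FPKM in the AZD libraries. Again DMSO replicate 1 lay within the range of the AZD libraries. Its log2 fold change was −1.76 (standard error 0.70, limma adjusted p = 0.196), and it was −2.62 (limma adjusted p = 0.00612) without DMSO replicate 1. The mean of DMSO replicates 2 and 3 was 7.94 times DMSO replicate 1 in Gh_D08G2224 and 7.14 times in Gh_A08G1863.

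The other tested LOX1 copies ran the opposite way within the DMSO group. LOX1 Gh_A13G0888 stood at 18.1, 5.60 and 8.43 FPKM in the DMSO libraries, against 4.08, 3.61 and 4.09 FPKM in the AZD libraries. DMSO replicate 1 was here the highest library, at 2.57 times the mean of DMSO replicates 2 and 3, and this was the one tested copy whose groups did not overlap. Its log2 fold change was −1.18 (standard error 0.39, 95% interval −2.11 to −0.25), and it was not past the test (limma adjusted p = 0.136, and 0.0746 to 0.304 with 1 library left out).

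LOX1 Gh_D13G1129 stood at 8.70, 1.04 and 5.50 FPKM in the DMSO libraries, against 1.52, 2.22 and 1.64 FPKM in the AZD libraries. DMSO replicate 2 was the lowest of the 6 libraries, and DMSO replicates 1 and 3 were the highest. Its log2 fold change was −0.95 (standard error 0.63, limma adjusted p = 0.422), and without DMSO replicate 2 it was −1.71 (limma adjusted p = 0.0385). Leaving out DMSO replicate 1 took 2 LOX copies past the test, both lower, and leaving out DMSO replicate 2 took 1. Without DMSO replicate 1, 8.36% of all tested genes passed (3.91% lower and 4.46% higher), a larger share than with all 6 libraries. Without DMSO replicate 2 the share was 2.52% (1.76% lower and 0.757% higher). The green tissue markers were also highest in DMSO replicate 1 within its group, and their part in these results was not tested.

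**Figure D2:**
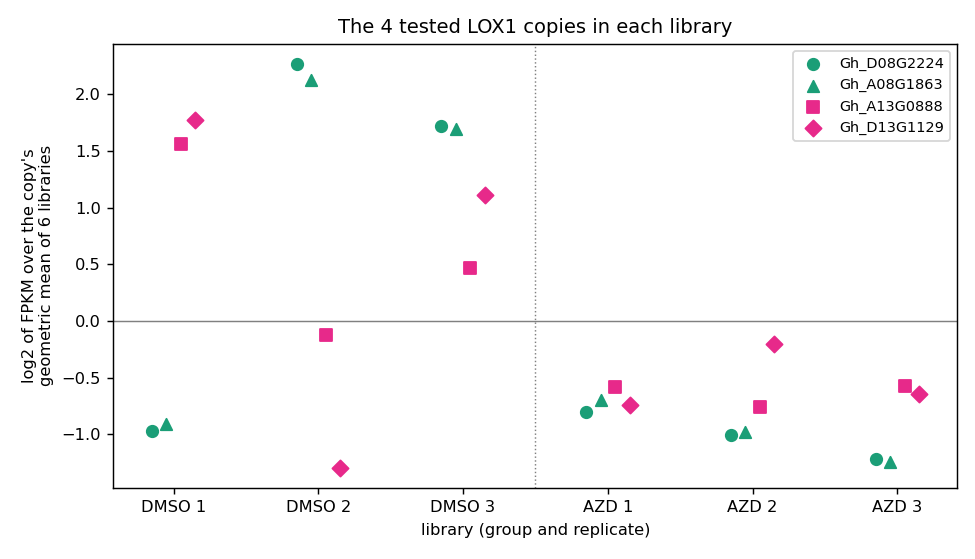
The 4 tested LOX1 copies in each library, as log2 of the FPKM over the geometric mean of that copy over the 6 libraries, with a symbol for each copy. In DMSO replicate 1 the copies on chromosomes A08 and D08 (green) lie within their range in the AZD libraries and those on A13 and D13 (pink) are at their highest.

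All 4 copies varied little among the AZD libraries. The highest of these libraries was 1.33 times the lowest in Gh_D08G2224, 1.46 times in Gh_A08G1863, 1.13 times in Gh_A13G0888 and 1.46 times in Gh_D13G1129. Among the DMSO libraries the same ratio was 9.42, 8.19, 3.23 and 8.37. The standard errors of these 4 log2 fold changes had a median of 0.66, against 0.20 over all tested genes.

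The other 5 LOX1 copies were at or near 0. Gh_A04G0392 and Gh_A08G1862 were listed at 0 in every library. The values of the next 3 were looked at because their IDs adjoin those of the abundant copies, a choice made after their values were seen. Gh_A08G1864 had 0.0198, 0.0859 and 0.0676 FPKM in the DMSO libraries and was listed at 0 in the AZD libraries. Gh_D08G2225 was listed at 0 except in DMSO replicate 2 (0.0192 FPKM) and DMSO replicate 3 (0.0151 FPKM). Both were highest in DMSO replicates 2 and 3, as were the abundant copies next to them in ID. Values so near 0 may rest on very few fragments, so that no shared pattern is read from them. Gh_D08G2223 went the other way, at 0.0435, 0.0567 and 0.0298 FPKM in the DMSO libraries, against 0.151, 0.142 and 0.106 FPKM in the AZD libraries. All 3 were under the filter and not tested.

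The 5 tested LOX5 copies were low and even, with log2 fold changes of −0.30 to 0.22 and limma adjusted p-values of 0.452 to 0.966. Summed over its 11 copies, LOX5 stood at 8.55, 6.81 and 9.29 FPKM in the DMSO libraries, against 6.93, 8.26 and 8.54 FPKM in the AZD libraries, and the groups overlapped. The most abundant of them, LOX5 Gh_A09G2247, stood at 2.45, 1.21 and 2.55 FPKM in the DMSO libraries, against 1.50, 2.24 and 1.42 FPKM in the AZD libraries. Its groups overlapped as well, and its log2 fold change was −0.18 (standard error 0.28, 95% interval −0.85 to 0.48).

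LOX5 also held the tested copies with some of the smallest standard errors of the family. Gh_A08G0441 had 1.64 ± 0.252 FPKM (SD, n = 3) in the DMSO libraries and 1.66 ± 0.152 FPKM in the AZD libraries, with a 95% interval of the log2 fold change of −0.36 to 0.39. Gh_A02G0294 had 1.35 ± 0.184 FPKM (SD, n = 3) and 1.64 ± 0.139 FPKM, with an interval of −0.15 to 0.58. A difference of 2-fold lies outside both intervals, on the log2(FPKM + 0.5) scale. Gh_D09G2080 had 1.05 and 1.32 FPKM on average and Gh_A08G0440 0.670 and 0.456 FPKM, with intervals of −0.34 to 0.77 and −0.89 to 0.28. Of the 6 LOX5 copies that were not tested, 1 was listed at 0 in every library (Gh_Sca145277G01). Gh_D13G1863 was listed at 0 except in DMSO replicate 1 (0.253 FPKM) and DMSO replicate 3 (0.172 FPKM). Gh_D02G0358, named after its values were seen, stood at 0.393, 0.324 and 0.349 FPKM in the DMSO libraries, against 0.156, 0.214 and 0.173 FPKM in the AZD libraries, without overlap. The last 3, Gh_A07G1783, Gh_D07G1987 and Gh_D08G0529, had means of 0.482, 0.230 and 0.229 FPKM.

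None of the 7 tested 13-LOX copies passed the test, and none had an unadjusted p under 0.05 (limma). Their log2 fold changes ran from −0.40 to 0.55, and their adjusted p-values from 0.321 to 0.952.

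LOX2, the plastid enzyme of the leaf wound response in *Arabidopsis*, had the most abundant 13-LOX copy. LOX2 Gh_D05G0683 stood at 3.80, 7.88 and 6.02 FPKM in the DMSO libraries, against 4.48, 4.16 and 10.9 FPKM in the AZD libraries. The highest library was labelled AZD and the lowest DMSO, and the groups overlapped over most of their range. Its log2 fold change was 0.06 (standard error 0.41, 95% interval −0.92 to 1.04, limma adjusted p = 0.952), so that the interval reaches just past 2-fold higher but not to 2-fold lower. LOX2 Gh_A05G0552 ranged from 0.239 to 2.15 FPKM in the DMSO libraries and from 0.517 to 1.57 FPKM in the AZD libraries (log2 fold change 0.27, standard error 0.54). Replicate 3 was the highest library of its group in this copy in both groups. The last LOX2 copy, Gh_D08G0818, was listed at 0 throughout.

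LOX3, a 13-LOX that acts in stamens and wounded leaves of *Arabidopsis*, had 2 copies near 2 FPKM. LOX3 Gh_A10G0504 stood at 3.68, 0.860 and 1.77 FPKM in the DMSO libraries, against 1.54, 1.63 and 1.88 FPKM in the AZD libraries. LOX3 Gh_D10G2595 stood at 2.45, 1.20 and 1.15 FPKM in the DMSO libraries, against 2.08, 1.96 and 2.14 FPKM in the AZD libraries. In both copies DMSO replicate 1 was the highest library, as in the LOX1 copies Gh_A13G0888 and Gh_D13G1129. The log2 fold changes were −0.11 (standard error 0.39) and 0.34 (standard error 0.25). Without DMSO replicate 1 they were 0.31 and 0.61, the latter with a limma adjusted p of 0.0622. The other tested copy, Gh_A09G0693, had 0.615 and 0.700 FPKM on average (95% interval of the log2 fold change −0.72 to 0.90). The other 5 LOX3 copies had means of at most 0.227 FPKM, and 1 of them (Gh_D06G2175) was listed at 0 throughout.

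LOX6, the 13-LOX that also acts in roots of *Arabidopsis*, had 2 tested copies. LOX6 Gh_D02G1542 stood at 0.603, 0.458 and 1.22 FPKM in the DMSO libraries, against 0.972, 1.81 and 1.19 FPKM in the AZD libraries. Its groups overlapped through DMSO replicate 3, and its log2 fold change of 0.55 (standard error 0.30, 95% interval −0.16 to 1.27, limma adjusted p = 0.321) was the largest positive one of the family. LOX6 Gh_A03G1114 ranged from 0.164 to 1.92 FPKM and from 0.239 to 1.01 FPKM, and its highest DMSO library was 11.7 times its lowest, the widest such ratio among the tested copies. The remaining LOX6 copy and the LOX4 copy, both on unplaced scaffolds by their IDs, were listed at 0 in every library.

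**Figure D3:**
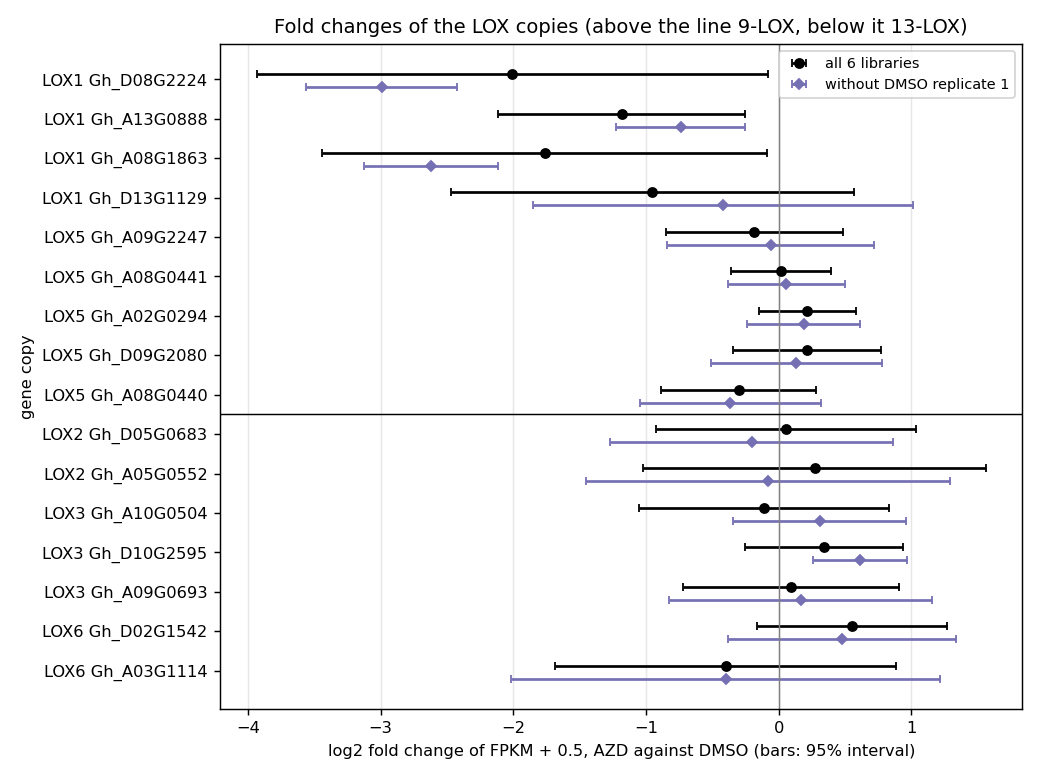
Log2 fold change of FPKM + 0.5 (AZD against DMSO) with its 95% interval for the 16 tested LOX copies, over all 6 libraries (black circles) and without DMSO replicate 1 (purple diamonds). Leaving out that library moves Gh_D08G2224 from −2.01 to −2.99 and Gh_A08G1863 from −1.76 to −2.62 with narrower intervals, while the intervals of 6 of the 7 13-LOX copies include 0 both ways.

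Under the filter, 4 of the 12 copies that were above 0 in some library had groups without overlap (2 lower and 2 higher in the AZD libraries), beside 11.5% of all such genes in the table. They are Gh_A08G1864, Gh_D02G0358, Gh_D08G2223 and Gh_A06G1802, a LOX3 copy listed at 0 in the DMSO libraries and at 0.0190 to 0.0562 FPKM in the AZD libraries. With every copy above 0 entered in the fit, 28 copies were tested and again none passed (limma, 5 at an unadjusted p under 0.05).

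Cotton is a tetraploid with an A and a D subgenome, and the gene IDs name the chromosome. For each LOX name and chromosome number found in both subgenomes, the copy with the highest mean was taken from each, which gave 10 pairs. No sequence was compared, so that the pairs rest on the IDs alone, and they were formed after the values were seen. The A copy was higher in all 6 libraries in 5 pairs, the D copy in 2, and the order varied in 3.

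The widest imbalance was that of LOX1 on the chromosomes numbered 8. Gh_D08G2224 had 28.0, 32.2 and 29.7 times the FPKM of Gh_A08G1863 in the DMSO libraries, against 27.1, 28.6 and 29.7 times in the AZD libraries. The ratio was nearly the same in the libraries where both copies were high and in those where both were low. Fragments from near-identical copies can be counted for either, and how the authors' mapping treated such fragments is not given in the sources used here.

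Other pairs did not keep such a ratio. LOX1 Gh_A13G0888 was above Gh_D13G1129 in every library, by 1.53 to 5.38 times. LOX2 Gh_D05G0683 was above Gh_A05G0552 by 2.80 to 19.9 times. In LOX5, Gh_A02G0294 was 3.25, 3.74 and 4.46 times Gh_D02G0358 in the DMSO libraries, against 11.5, 7.10 and 9.33 times in the AZD libraries, so that the ratios of the groups did not overlap in this pair. Gh_D02G0358 was under the filter, at 0.156 to 0.393 FPKM, and the ratios were not tested. The LOX3 pair on the chromosomes numbered 10 was close to balance, with D over A at 0.647 to 1.40.

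**Figure D4:**
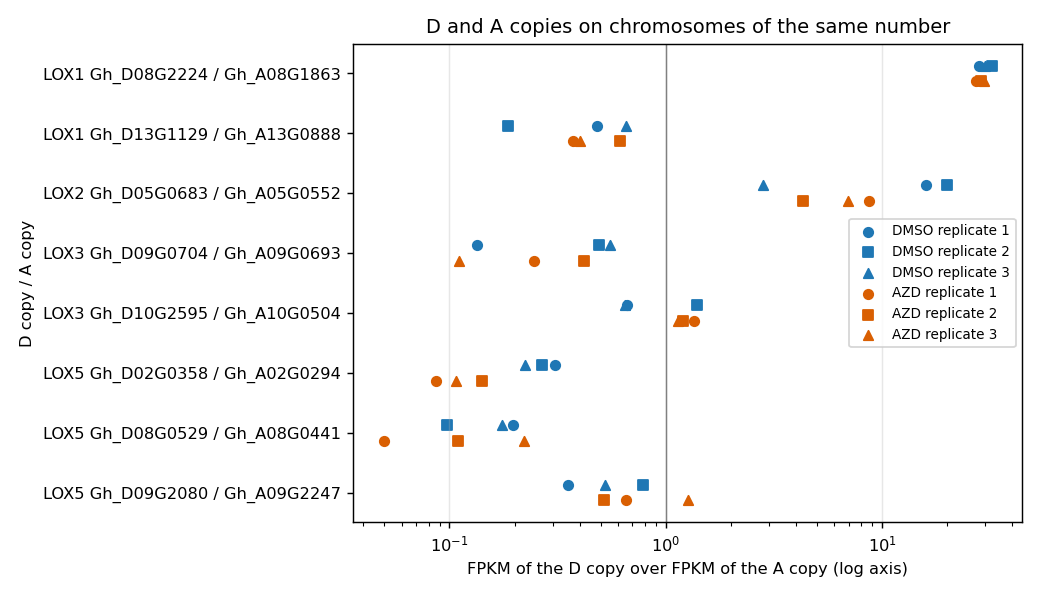
FPKM of the D copy over FPKM of the A copy (log axis) in each library for the 8 pairs in which at least 1 copy had a mean of 0.5 FPKM, blue for DMSO and orange for AZD. The LOX1 pair on the chromosomes numbered 8 stays between 27.1 and 32.2, while the LOX2 pair spreads from 2.80 to 19.9.

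The genes whose log2(FPKM + 0.5) ran most like that of LOX1 Gh_D08G2224 over the 6 libraries were Gh_D09G0921 (match AT5G22500, Pearson's r = 0.998), Gh_A08G0983 (no match, r = 0.996) and Gh_D02G0220 (match AT3G23730, r = 0.996). Gh_D02G0220 stood at 104, 403 and 304 FPKM in the DMSO libraries, against 106, 105 and 106 FPKM in the AZD libraries, so that it too had DMSO replicate 1 at the level of the AZD libraries. In all, 423 of 43142 other tested genes had an r above 0.95 with Gh_D08G2224, but only 34 with LOX2 Gh_D05G0683. Those most like the LOX2 copy were Gh_A10G1190 (match AT5G55840, r = 0.997), Gh_A02G0906 (match AT3G21140, r = 0.991) and Gh_A10G2188 (match AT5G59900, r = 0.986). Each r rests on the same 6 libraries and is given as a description.

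Genes on either side of the LOX step had calls in both directions, each to be read beside the 1.89% higher and 2.80% lower among all tested genes. Of 13 tested genes that make or release linolenic acid, 1 was higher and 1 lower in the AZD libraries. FAD2, which desaturates oleic acid to linoleic acid, was lower in its copy Gh_D11G3169, at 87.0, 90.3 and 109 FPKM in the DMSO libraries, against 41.2, 45.4 and 33.0 FPKM in the AZD libraries (log2 fold change −1.26, limma adjusted p = 0.0209). FAD8, a plastid desaturase that makes linolenic acid, was higher in Gh_D04G1274, at 8.69, 7.38 and 6.79 FPKM in the DMSO libraries, against 14.8, 14.7 and 11.5 FPKM in the AZD libraries (log2 fold change 0.80, limma adjusted p = 0.0448). The more abundant FAD8 copies Gh_A10G2136 and Gh_D10G2457, with means of 49.5 and 50.2 FPKM, were not called. Their log2 fold changes were 0.045 and 0.051 (limma adjusted p = 0.937 and 0.910). The 12 genes matched to the lipases DAD1 and DGL were listed at 0 in every library. The list had a median log2 fold change of −0.45. That median is the value of FAD7 Gh_Sca086322G01 (standard error 1.83). This gene was listed at 0 except in DMSO replicate 2 (22.8 FPKM) and AZD replicate 2 (8.61 FPKM).

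The next list held AOS and HPL1, which use 13-hydroperoxides, and AOC (allene oxide cyclase), which acts after AOS. Of its 15 tested genes, 3 were higher and none lower over the 6 libraries, with a list median of 0.05. Without DMSO replicate 1 there were 3 higher and 3 lower, the lower ones all AOS copies. Both HPL1 genes were among the 3 called higher over the 6 libraries. HPL1 is the hydroperoxide lyase that cleaves 13-hydroperoxides to the aldehydes of green leaf scent, and AOS takes the same substrate towards JA. HPL1 Gh_A11G1429 stood at 26.0, 12.8 and 12.8 FPKM in the DMSO libraries, against 57.9, 62.5 and 62.3 FPKM in the AZD libraries (log2 fold change 1.88, limma adjusted p = 0.0246). HPL1 Gh_D11G1581 measured 28.7, 26.9 and 23.2 FPKM in the DMSO libraries, against 48.3, 51.0 and 48.5 FPKM in the AZD libraries (log2 fold change 0.90, limma adjusted p = 0.0231). The other was the AOS copy Gh_A03G2119, at 3.64, 2.09 and 4.71 FPKM in the DMSO libraries, against 11.0, 11.9 and 10.4 FPKM in the AZD libraries (log2 fold change 1.60, limma adjusted p = 0.0285). These 3 genes were higher in each AZD library than in any library labelled DMSO. So were the summed green tissue markers, of which 8 of 12 tested genes were called higher and none lower, and their part in these results was not tested.

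The most abundant AOS copy had a fold change of the opposite sign. AOS Gh_D06G0087, named after its values were seen, was at 53.9, 275 and 222 FPKM in the DMSO libraries, against 38.6, 29.9 and 34.9 FPKM in the AZD libraries. The groups did not overlap, and DMSO replicate 1 was the lowest of its group, as in LOX1 Gh_D08G2224. Its log2 fold change was −2.10 (limma adjusted p = 0.100), and without DMSO replicate 1 it was −2.83 (limma adjusted p = 0.00470). The other AOS copies called lower without that library were Gh_D06G0089 and Gh_A06G0111, with log2 fold changes of −2.23 and −1.83 over the 6 libraries (limma adjusted p = 0.161 and 0.180) and of −3.21 and −2.68 without it.

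Of 41 tested genes from OPDA to JA and its conjugates, 2 were higher and 2 lower. The OPDA reductase OPR3 was higher in Gh_A05G3948, at 2.48, 3.50 and 3.69 FPKM in the DMSO libraries, against 6.64, 5.98 and 5.71 FPKM in the AZD libraries (log2 fold change 0.84, limma adjusted p = 0.0442). It was also higher in Gh_D05G0339, at 2.87, 2.40 and 2.56 FPKM in the DMSO libraries, against 6.06, 4.98 and 7.41 FPKM in the AZD libraries (log2 fold change 1.08, limma adjusted p = 0.0255). The remaining tested OPR3 copy, Gh_D06G0777, was not called, with means of 3.15 FPKM in the DMSO and 3.34 FPKM in the AZD libraries (log2 fold change 0.07, limma adjusted p = 0.803). The acyl-CoA oxidase ACX1, which shortens the side chain, was lower in 2 copies. The study's account gives both, and the called JAZ1 copy, the other way. ACX1 Gh_A11G2972 had 24.1, 24.0 and 23.3 FPKM in the DMSO libraries, against 11.6, 10.7 and 12.4 FPKM in the AZD libraries (log2 fold change −1.01, limma adjusted p = 0.0121). ACX1 Gh_D11G0264 had 17.0, 24.2 and 19.5 FPKM in the DMSO libraries, against 6.78, 6.45 and 9.18 FPKM in the AZD libraries (log2 fold change −1.38, limma adjusted p = 0.0209). Without DMSO replicate 1, 3 genes of this list were higher and 6 lower. Neither of the 2 tested genes matched to DOX2, of the alpha-dioxygenase family, whose enzymes oxygenate fatty acids next to the carboxyl end, passed (limma, 1 at an unadjusted p under 0.05), and the more abundant, Gh_A09G1575, had a log2 fold change of −0.33 (standard error 0.42). Of 22 tested JAZ repressors, which JA removes, the JAZ1 copy Gh_D08G2564 was lower, at 2.74, 1.32 and 2.91 FPKM in the DMSO libraries, against 0.431, 0.115 and 0.210 FPKM in the AZD libraries (log2 fold change −1.88, limma adjusted p = 0.0311). Of these 10 called genes, 10 passed again without DMSO replicate 1, 5 without DMSO replicate 2 and 2 without DMSO replicate 3. None passed without AZD replicate 1 or 2, and 1 (ACX1 Gh_D11G0264) passed without AZD replicate 3.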

How the data were processed

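Total RNA of 6 seedling libraries was sequenced as paired-end reads. The authors mapped the reads with TopHat2, assembled them with Cufflinks and compared groups with Cuffdiff, and they deposited FPKM per gene and library. For tool versions, the genome build and any rescaling between libraries, the sources used here give nothing. All 6 value columns were used and 0 were left out. Fragment counts per library were not used here. The most common ratio between libraries among values under 0.1 FPKM put the depth behind the FPKM at 0.920 to 1.46 times that of DMSO replicate 1. That is an indirect estimate and is highest for DMSO replicate 3, whereas the clean reads the study reports are highest for AZD replicate 3. Median-of-ratios factors were 0.993 to 1.03. From 56.0% to 73.9% of the FPKM of a library came from its 3 highest genes. No gene ID (0) occurred in the reference table, so names are those of the matched *Arabidopsis* locus.

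Tests used limma 3.58.1 in R 4.3.3 with its trend, two-sided, on log2(FPKM + 0.5), AZD against DMSO, without pairing, which the methods do not name. With 3 against 3 libraries, an exact permutation test of 1 gene cannot give a p under 0.1. Tables were handled with Python 3.11.15 and pandas 2.3.3. The test was run on simulated data with independent noise in each gene and library. That check does not cover a library that departs from its group in many genes together. The members, lists and rules were chosen with earlier results of these data known. Values per library are given for the copies the study lists, the 3 most abundant copies of each class and the most abundant copy of each LOX, and for called genes of 5 pathway lists, with some copies given as mean ± SD or range. The 3 genes most like the top copy of each class are named. Alternatives were other pseudocounts, filters and scalings, no trend, a replicate block, the study's stated limits, and leaving out each library.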

Additional observations from a re-analysis of the deposited data

How the results depend on the processing

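For the 16 tested LOX copies, 208 of 219 values under the alternatives kept their direction and their side of the threshold, 3 passed the test where the reported value did not, and 8 changed direction. The count of LOX copies past the test was 0 under other pseudocounts, filters and scalings, without the trend and with a replicate block, and 0 to 2 with 1 library left out (the same 0 to 2 for 9-LOX, and 0 for 13-LOX throughout). The limits the study states (P up to 0.8, with group means at least 1 apart in log2 ratio, either way) were applied to the unadjusted limma p. The study's own P came from Cuffdiff. Under them 4 of the 16 LOX copies were called lower, all of them 9-LOX, and none higher. Of all 43158 tested genes, 5480 were called, 3441 lower and 2039 higher. Correlations of deviations from the group means were 0.02, −0.04 and −0.09 between libraries of the same replicate number (1, 2 and 3). Between libraries of unlike numbers they ran from −0.12 to 0.17. With 3 libraries per group, such values cannot settle whether the replicate numbers pair the samples. With the replicate number as a block, 72 of all genes passed in place of 2025, and 0 of each of the 5 pathway lists and of the LOX copies. With 1 library left out, 199 to 3590 of all genes passed. The same range was 0 to 3 for linolenic acid synthesis and release and 0 to 6 for use of 13-hydroperoxides with AOC. It was 0 to 9 for OPDA to JA and 0 to 2 for JAZ repressors. The first of these lists had 1 called gene in place of 2 without the filter and also 1 without the trend. Without the most abundant copy of each class, the 9-LOX share was 83.6% in the DMSO libraries and 67.8% in the AZD libraries.

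Direction changed only in uncalled genes with 1 library left out, where the log2 fold change ran from −0.086 to 0.074 for LOX5 Gh_A08G0441, −0.36 to 0.29 for LOX2 Gh_D05G0683, −0.082 to 0.84 for LOX2 Gh_A05G0552, −0.50 to 0.31 for LOX3 Gh_A10G0504, −0.13 to 0.33 for LOX3 Gh_A09G0693 and −0.72 to 0.018 for DOX2 Gh_A09G1575. The cause was not tested. Fragment counts behind the FPKM were not used here, so copies near 0 carry no counting interval.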
